A study of Mus musculus with 8 samples.

Results

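Among the LRH-1 binding sites mapped in the mouse ovary before the ovulatory signal, 284 had no counterpart 4 h after it although the chromatin under them was listed as open at both times. LRH-1 (NR5A2) is an orphan nuclear receptor that binds DNA as a monomer and drives steroidogenic and ovulatory genes in granulosa cells, which line the follicle and nurse the egg. The surge of luteinising hormone turns these cells from follicle growth to ovulation and luteinisation, and enhancers are opened, closed or handed to other factors on the way. FAIRE (formaldehyde-assisted isolation of regulatory elements) recovers DNA that is poor in nucleosomes and so marks open regulatory elements, while chromatin immunoprecipitation (ChIP) recovers DNA bound by a named protein.

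The sites were chosen by overlap from 4 deposited peak lists: LRH-1 peaks before human chorionic gonadotropin (hCG, given in place of the natural surge) that shared no base with an LRH-1 peak after hCG and at least 1 bp with a FAIRE peak of both times. They are called lost sites in constantly open chromatin, where "lost" means absent from the later list and "constantly open" means listed at both times. The lists held 9413 LRH-1 peaks after and 5886 before hCG, and 22791 FAIRE peaks after and 21431 before hCG. The 284 lost sites were therefore part of 5886 LRH-1 peaks. Material came from C57BL/6 mice of genotype LRH-1 +/+, aged 22 to 25 days, which had all received 5 IU of equine chorionic gonadotropin to grow follicles. The group after hCG was taken 4 h after 5 IU of hCG given 44 h later, and the group before hCG at 0 h.

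FAIRE used granulosa cells that puncturing the ovaries set free, whereas the ChIP used pieces of ovarian tissue (n = 5 per condition), so LRH-1 peaks can come from other cells of the ovary. Each label states 2 replicates and each time had 1 list, so all values below describe lists, no test between replicates was possible, and intervals cover counting error only. Whether a site without a later peak had no LRH-1 or less than the peak caller required cannot be told apart. The weakest listed peaks had a fold enrichment of 2.89 and a −log10 q of 2.65 in the LRH-1 list after hCG, and 2.34 and 2.58 in the list before it. All coordinates are in mouse build mm9, per the submitters' processing notes, and count from 1. No genome or gene annotation of that build was used here, so genes, exons and motifs at the sites were not analysed, and neither was RNA, which the files list by transcript with no position.

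How often LRH-1 was lost differed between FAIRE classes. In constantly open chromatin, 284 of 1653 LRH-1 peaks were lost (17.2%, exact binomial 95% interval 15.4 to 19.1), against 1948 of all 5886 (33.1%, 31.9 to 34.3). Where FAIRE was listed before hCG only, 633 of 1506 were lost (42%, 39.5 to 44.6), and where no FAIRE peak was listed at either time, 971 of 2341 (41.5%, 39.5 to 43.5). Sites with a FAIRE peak after hCG only came close to the constantly open ones, with 60 of 386 lost (15.5%, 12.1 to 19.6). Constantly open sites made up 14.6% of the 1948 lost peaks and 28.1% of all LRH-1 peaks before hCG. These counts restate the overlaps that defined the sites. The number of lost sites depended on the overlap rule and the list length: it was 481 when a site counted as kept only with summits within 100 bp of each other, 469 when the LRH-1 list after hCG was shortened to the length of the list before hCG, and 131 with the best-scoring 50% of each FAIRE list.

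The lost sites were among the weaker LRH-1 peaks of their list. Their median fold enrichment before hCG was 5.37 (quartiles 4.85 and 6.11), beside 6.22 (5.35 and 7.72) at the 1369 persistent sites in constantly open chromatin and 5.75 over all LRH-1 peaks before hCG. The median −log10 q, the authors' measure of confidence in a peak, was 7.25 at lost sites, 11.1 at persistent ones and 8.66 over the list. Of the lost sites, 94 (33.1%) lay at or above the 50th percentile of the LRH-1 list and 6 (2.11%) at or above the 90th. Among persistent sites the counts were 906 (66.2%) and 272 (19.9%). Lost sites were also narrower, with a median width of 257.5 bp beside 321 bp at persistent sites and 287 bp over the list. Their strength and width were close to those of peaks lost in other chromatin. At FAIRE peaks of the earlier time only, the median fold of lost peaks was 5.50 and the median width 268 bp. Without any FAIRE peak these were 5.29 and 253 bp.

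**Figure D1:**
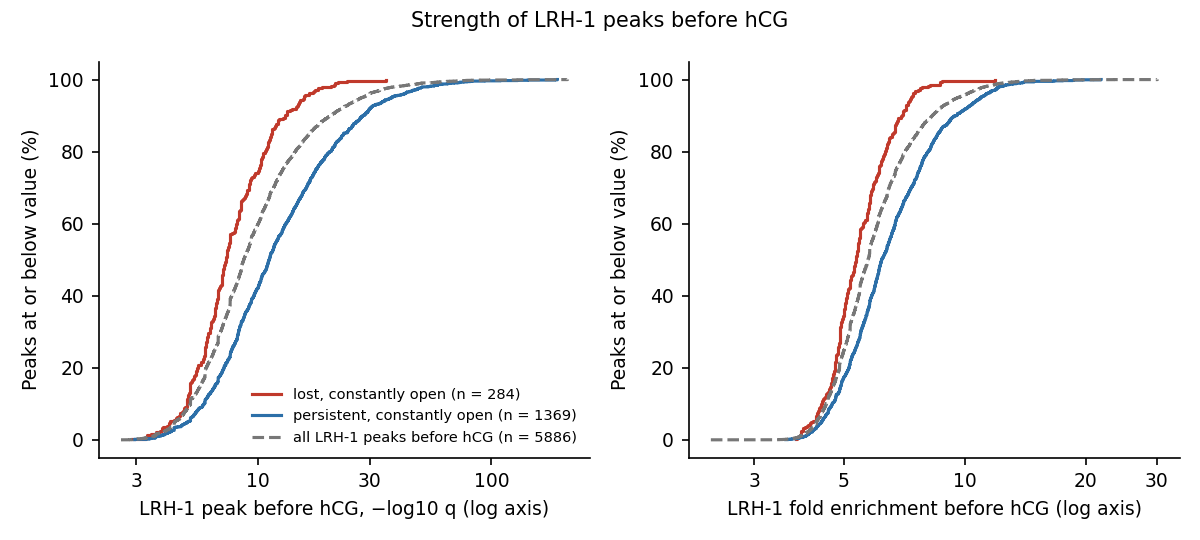
Cumulative share of LRH-1 peaks before hCG (vertical axes, %) by −log10 q and by fold enrichment (horizontal log axes). The lost sites in constantly open chromatin (red, n = 284) lie left of the persistent ones (blue, n = 1369) and of all LRH-1 peaks before hCG (grey dashes, n = 5886), with median fold values of 5.37, 6.22 and 5.75.

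The strongest lost site was chr9:107876889-107877317, with 11.9-fold enrichment and a −log10 q of 35.1, rank 146 of the LRH-1 list before hCG. It was the single lost site with a fold above 10. Its FAIRE peaks had scores of 191 after and 58.3 before hCG, but they only touched its right end: the LRH-1 summit at 107877100 lay outside both, as the FAIRE peaks started at 107877273 after hCG and at 107877259 before it. The nearest LRH-1 peak after hCG was 27113 bp away.

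The site next in −log10 q (24.0, 7.13-fold) was chr1:59861223-59861597, under a FAIRE peak that scored 49.3 after and 273 before hCG. Within their own lists those FAIRE peaks ranked 18066 of 22791 after and 1074 of 21431 before hCG. This was a site near the top of one FAIRE list and low in the other. A gained LRH-1 peak of 4.61-fold, listed after hCG only, lay 2039 bp away and outside this open region.

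At chr8:17564882-17565227 the LRH-1 peak was 8.77-fold enriched (−log10 q 21.3), and its FAIRE peaks scored 100 after hCG, the 69.3rd percentile of that list, and 340 before hCG, the 97.1st percentile. At chr14:78207685-78208031 (8.22-fold) the FAIRE scores were 70.7 after hCG and 74.8 before hCG, at the 49.3rd and 53.9th percentile. At chr15:7769833-7770189 (8.67-fold) they were 65.4 after hCG and 58.6 before hCG, at the 43.9th and 36.0th percentile. The strong lost sites thus included some high in the FAIRE list before hCG and some near or below the middle of both lists.

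A further 4 of the 10 strongest lost sites had fold values from 6.99 to 8.69. The FAIRE peak after hCG was near the bottom of its list at chr16:5965741-5966119 (8.69-fold), with a score of 41.3 after and 96.7 before hCG, and at chr9:13879895-13880232 (7.84-fold), with 44.1 after and 60.5 before hCG. The FAIRE list after hCG holds no score under 40, so both were only just listed as open at the later time. At chr6:78121601-78121938 (7.73-fold) the scores were 93.1 after and 99.1 before hCG, and at chr3:141556351-141556612 (6.99-fold) 54.2 after and 191 before hCG. The other of the 10 strongest lost sites, on chromosome 12, is described with the neighbouring peaks below.

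The FAIRE peaks under lost sites held lower places in the list after hCG than those under persistent sites, and about the same places in the list before hCG. At lost sites the median FAIRE score after hCG was 73.4 (quartiles 52.4 and 107), which is the 51.9th percentile of that list and close to the list's own median of 71.4. At persistent sites it was 98.9 (65.6 and 158), the 68.8th percentile. In the FAIRE list before hCG the lost sites had a median score of 112 (80.1 and 178), the 74.9th percentile, beside 119 (76.6 and 184) and the 77.1st percentile at persistent sites, where the whole list had a median of 70.5. The difference in median percentile, lost minus persistent, was -16.9 in the list after hCG and -2.24 in the list before it. After hCG it was -9.84 when only summits within 100 bp counted as kept and -8.69 with the best-scoring 50% of each FAIRE list, and before hCG the 50% choice turned its sign, to 1.57. Scores and percentiles are the authors' values for ranking peaks within a list, and both lists were scored separately, so a site's places in the lists give no change over time.

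Gained LRH-1 peaks in the same class of chromatin gave the mirror image. These 948 peaks were listed after hCG only and made up 40.9% of the LRH-1 peaks after hCG in constantly open chromatin, beside 58.1% gained over the whole later list. Their FAIRE peaks had a median percentile of 70.7 after hCG, near that of persistent sites, and of 63.0 before hCG, below both persistent and lost sites. In each of the 2 FAIRE lists, then, constantly open sites with an LRH-1 peak listed at that time had higher median percentiles than sites with none listed. These differences were not tested, because there was 1 list per time and peaks of a list are not replicates.

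**Figure D2:**
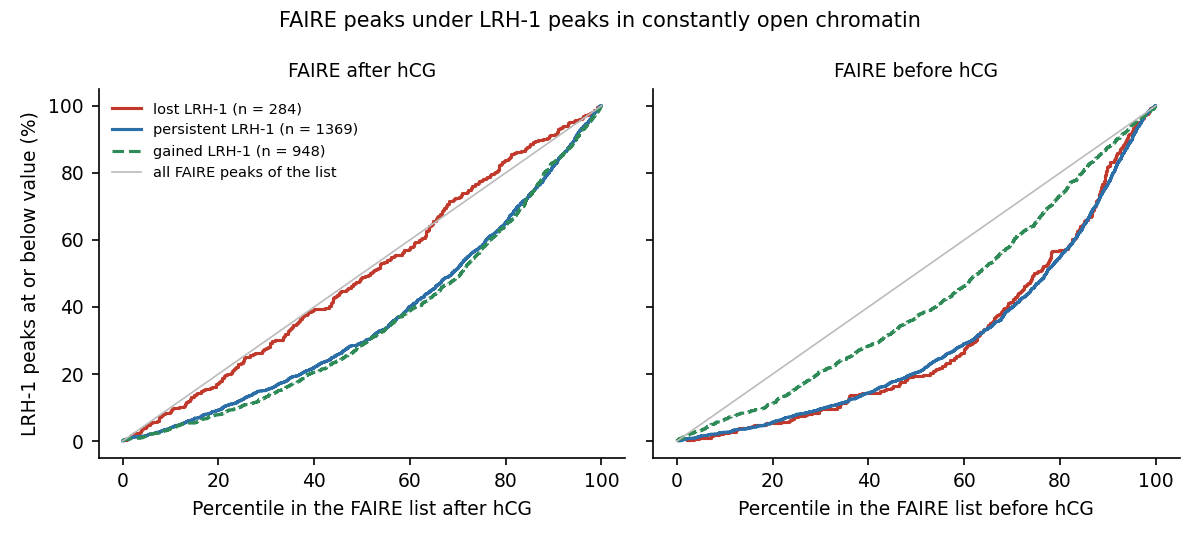
Cumulative share of LRH-1 peaks in constantly open chromatin (vertical axis, %) by the percentile of their FAIRE peak in its own list (horizontal axes), after hCG on the left and before hCG on the right. Lost sites (red, median 51.9) run along the diagonal of all FAIRE peaks after hCG, apart from persistent (blue, 68.8) and gained ones (green dashes, 70.7), and before hCG they run with the persistent sites (74.9 and 77.1).

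Read the other way round, the lost share declined with the FAIRE score after hCG and not with that before hCG. When the 1653 constantly open LRH-1 peaks were put into 5 equal groups by FAIRE score after hCG, the lost share was 26.9% in the lowest (95% interval 22.2 to 32), then 20.9%, 17.5% and 12.1%, and 8.46% in the highest (5.69 to 12). By FAIRE score before hCG the 5 groups had 16.6%, 19.1%, 16%, 19.7% and 14.5% lost. The intervals were 12.8 to 21.1 in the lowest of these groups and 10.9 to 18.8 in the highest. Neither pattern was tested, because peaks of a list are not replicates. By −log10 q of the LRH-1 peak the lost share was 33.5% in the lowest group (28.5 to 38.9), then 24.2%, 16.9% and 9.09%, and 2.11% in the highest (0.854 to 4.31), where 7 of 331 peaks were lost. This is measured around the share of 17.2% in the whole class.

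**Figure D3:**
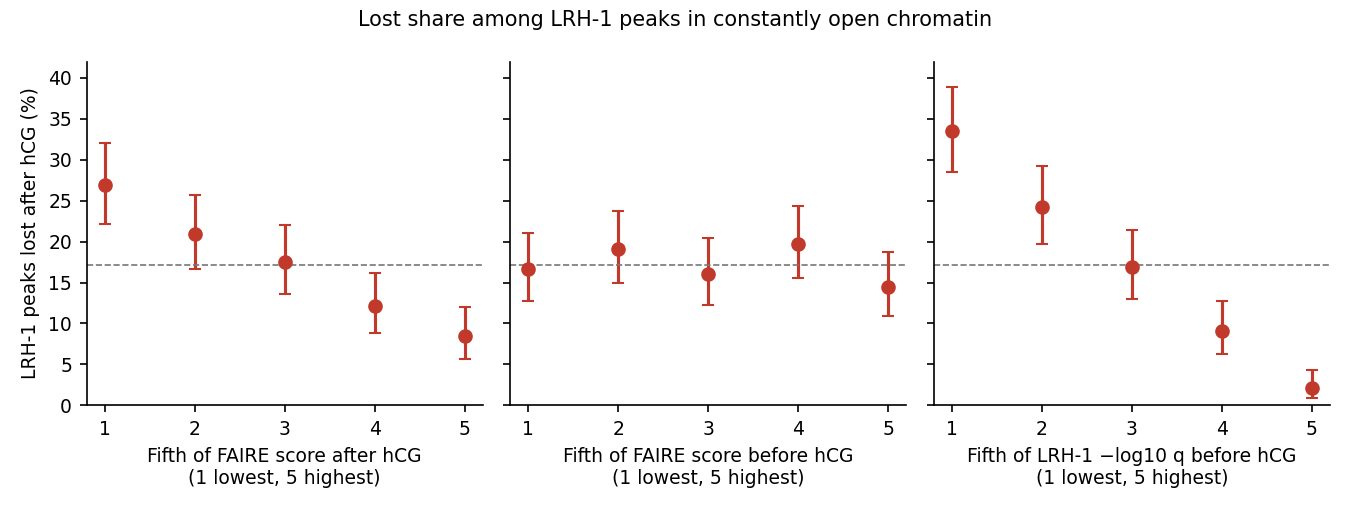
Share of LRH-1 peaks in constantly open chromatin that were lost after hCG (points, %) with exact binomial 95% intervals (bars), in 5 equal groups from lowest to highest by FAIRE score after hCG, FAIRE score before hCG and LRH-1 −log10 q before hCG. The dashed line is the 17.2% of the whole class, and the points run down from 26.9% to 8.46% in the left panel, stay between 14.5% and 19.7% in the middle one and run down from 33.5% to 2.11% in the right one.

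Both gradients were present side by side. With the same 1653 peaks in 3 equal groups by LRH-1 −log10 q and, separately, 3 by FAIRE score after hCG, the weak LRH-1 peaks were lost at 44.1% under low, 31.9% under middle and 17.4% under high FAIRE scores. Peaks of middle strength were lost at 23.1%, 17.6% and 7.14%, and strong peaks at 8.67%, 3.02% and 2.23%. The shares of strong peaks rest on only 15, 6 and 4 lost peaks, with 95% intervals of 4.93 to 13.9, 1.11 to 6.45 and 0.612 to 5.62. The extremes were 79 lost of 179 peaks (95% interval 36.7 to 51.7) and 4 lost of 179 peaks (0.612 to 5.62). Within each of 5 equal groups by −log10 q, the FAIRE percentile after hCG had a lower median at lost than at persistent sites, with differences from -7.13 to -31.5 percentile points. In the list before hCG the lost sites had the higher median in 3 of these 5 groups and the lower in the other 2. In the strongest group the differences of -19.2 points after hCG and -31.0 points before it both rest on 7 lost sites. The difference of -31.5 points after hCG, in the next strongest group, rests on 30.

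The lost sites with the highest FAIRE scores stood high in both lists. A weak LRH-1 peak at chr9:13631253-13631471 (5.44-fold) had FAIRE scores of 410 after and 629 before hCG, the highest FAIRE score before hCG at any lost site. At chr19:7291813-7292201 (7.51-fold) they were 479 after and 437 before hCG, and 479 was the highest after hCG. Scores of 426 after and 468 before hCG were found at chr3:90096379-90096679 (5.11-fold), and of 413 after and 555 before hCG at chr15:77759044-77759487 (6.01-fold). A site of 4.76-fold at chr11:22187493-22187711 had 361 after and 456 before hCG. These 5 lay at or above the 98.4th percentile of both FAIRE lists. A sixth site, chr9:48531829-48532288 (4.68-fold), was among the 5 highest before hCG only, with scores of 216 after hCG, the 93.1st percentile, and 458 before hCG. Such sites were the smaller part: 25 lost sites (8.8%) reached the 90th percentile after hCG and 51 (18%) did so before hCG, beside 248 (18.1%) and 320 (23.4%) of the persistent ones.

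Most LRH-1 summits lay inside the open regions, which the overlap rule makes likely because LRH-1 peaks were mostly narrower than FAIRE peaks. At 263 of 284 lost sites (92.6%, 95% interval 88.9 to 95.4) the summit lay inside the FAIRE peaks of both times. The same held at 1308 of 1369 persistent sites (95.5%, 94.3 to 96.6) and 876 of 948 gained peaks in constantly open chromatin (92.4%). Of the remaining 21 lost sites, the summit was inside the FAIRE peak after hCG only at 6, inside that before hCG only at 8 and inside neither at 7. The whole LRH-1 peak was covered by FAIRE peaks of both times at 245 lost sites (86.3%) and 1191 persistent sites (87%). From the summit to the middle of the FAIRE peak the median distance was 119 bp after and 90.5 bp before hCG at lost sites, beside 96 bp after and 89.5 bp before hCG at persistent ones. At lost sites the median width of the FAIRE peaks was 934 bp after and 1049.5 bp before hCG. Over the whole lists of those times it was 897 bp and 918 bp. A median of 80.1% of the joined span of the pair at lost sites was shared by both times. This was 81.9% at persistent sites and 81.5% at gained peaks in constantly open chromatin.

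Each lost site overlapped 1 FAIRE peak in each list, and the 284 sites fell into 282 different FAIRE peaks in either list. The least overlap with a FAIRE peak that still counted was 6 bp after hCG (chr9:22847380-22847758) and 16 bp before hCG (chr11:51813074-51813841). Just outside the rule, a lost LRH-1 peak at chr7:59518478-59518724 missed the nearest FAIRE peak after hCG by 48 bp. On the side of LRH-1, the lost site nearest to a later peak was 15 bp from it. The persistent peaks with the smallest overlaps shared 16 bp at chr16:59108097-59108315, 23 bp at chr1:35827111-35827329 and 30 bp at chr5:122822037-122822277. The next 2 shared 36 bp at chr8:122558352-122558633 and 46 bp at chr10:94928146-94928394.

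Most lost sites had no LRH-1 peak after hCG anywhere in the same open region. The nearest later LRH-1 peak lay a median of 44887.5 bp away (quartiles 13986.5 and 140671 bp). This median was 74344 bp with the later list shortened to the length of the earlier one. It was 7778 bp when only summits within 100 bp counted as kept, a rule under which many sites called lost still overlap a later peak. The nearest later peak was within 1 kb at 20 lost sites (7.04%), within 10 kb at 51 (18%) and within 100 kb at 189 (66.5%). Peaks lost at FAIRE peaks of the earlier time only had a median distance of 52536 bp, and shares of 3.95%, 19% and 64.3%. Peaks lost without any FAIRE peak had a median of 37767 bp, and shares of 3.91%, 23.4% and 73%. At 13 lost sites in constantly open chromatin (4.58%, 95% interval 2.46 to 7.7) a FAIRE peak that held the lost site also held another LRH-1 peak after hCG. This share was 1.92% with the shortened later list. When only summits within 100 bp counted as kept, a later peak that overlapped the site itself was counted too, and the share was 43.7%. It was 2.05% for peaks lost at FAIRE peaks of the earlier time only, which overlap no FAIRE peak after hCG. In constantly open chromatin, gained peaks alone lay within 100 kb of 138 lost (48.6%) and 825 persistent sites (60.3%). Within 1 kb they lay at 12 lost (4.23%) and 19 persistent sites (1.39%). A persistent site already overlaps a later peak that is not gained, so the shares within 1 kb are not like for like. Over all LRH-1 peaks before hCG the shares were 59.1% within 100 kb and 2.12% within 1 kb. They were 56.8% and 2.68% at peaks lost without any FAIRE peak, and 51.3% and 1.74% at peaks lost at FAIRE peaks of the earlier time only.

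**Figure D4:**
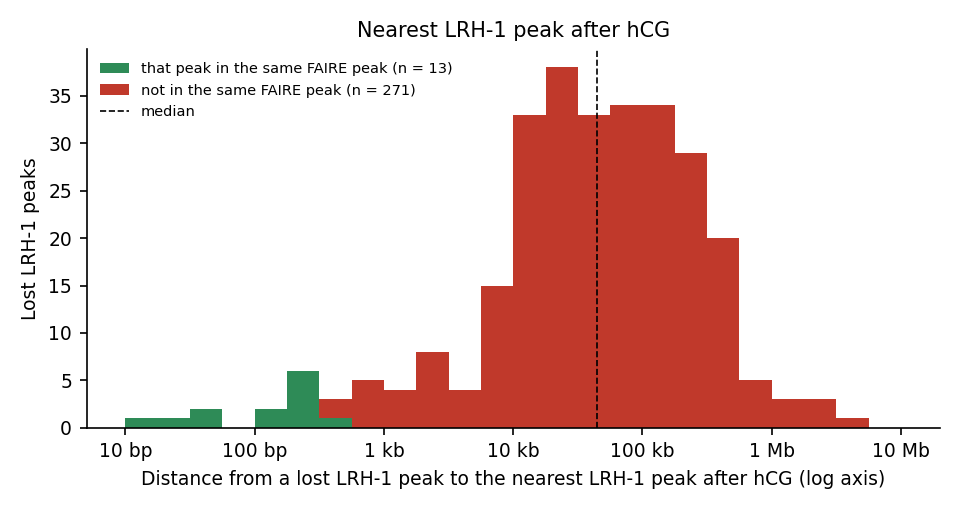
Number of lost LRH-1 sites in constantly open chromatin (vertical axis) by distance to the nearest LRH-1 peak after hCG (horizontal log axis), with the median of 44887.5 bp dashed. The 13 sites whose own FAIRE peak holds a later LRH-1 peak (green) all lie below 1 kb, and the other 271 (red) spread mostly from 10 kb to 1 Mb.

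In those 13 open regions the summits before and after hCG were 290 to 615 bp apart, with a median of 482 bp. In 7 of them the later LRH-1 peak was itself gained, so that the list before hCG had a peak at one place in the region and the list after hCG at another. The summits were closest on chromosome 11, where the peak after hCG at 107059932 to 107060165 (5.52-fold) lay 45 bp from the lost peak at 107060211 to 107060467 (5.12-fold). On chromosome 9 a gained peak at 85626819 to 85627105 (5.25-fold) stood 15 bp from the lost one at 85627121 to 85627354 (5.23-fold). On chromosome 12 a gained peak at 56163793 to 56164086 (4.65-fold) stood 29 bp from the lost one at 56164116 to 56164388 (4.84-fold). The gained peak at chr17:68305862-68306121 (3.97-fold) was 126 bp from the lost peak at 68305464 to 68305735 (5.33-fold). In the other 3 regions the lost peaks were chr2:44829401-44829692 (6.77-fold), chr1:157643225-157643449 (5.38-fold) and chr9:51607699-51607917 (5.11-fold), with the gained peak 208, 197 and 205 bp away. The lost peak on chromosome 2 lay above the upper quartile of the lost sites, 6.11-fold, and the other 6 below it.

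In the other 6 regions the later LRH-1 peak had already been present before hCG, so a neighbour of the lost site persisted. The clearest case was the third in −log10 q of all lost sites, at chr12:32807803-32808128 (6.73-fold, −log10 q 21.9). There a persistent LRH-1 peak 176 bp away had 9.89-fold enrichment in the list after hCG, at 32808305 to 32808840. It lay under FAIRE peaks that scored 195 after and 278 before hCG. Fold values rank peaks within a list, so those of the earlier and later list give no change over time. On chromosome 6 the lost peak at 39935907 to 39936271 (4.83-fold) lay 38 bp from a persistent peak of 6.61-fold after hCG. On chromosome 9 the lost peak at 48531829 to 48532288 (4.68-fold) lay 331 bp from a persistent one of 5.47-fold after hCG, in a region with FAIRE scores of 216 after and 458 before hCG.

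**Figure D5:**
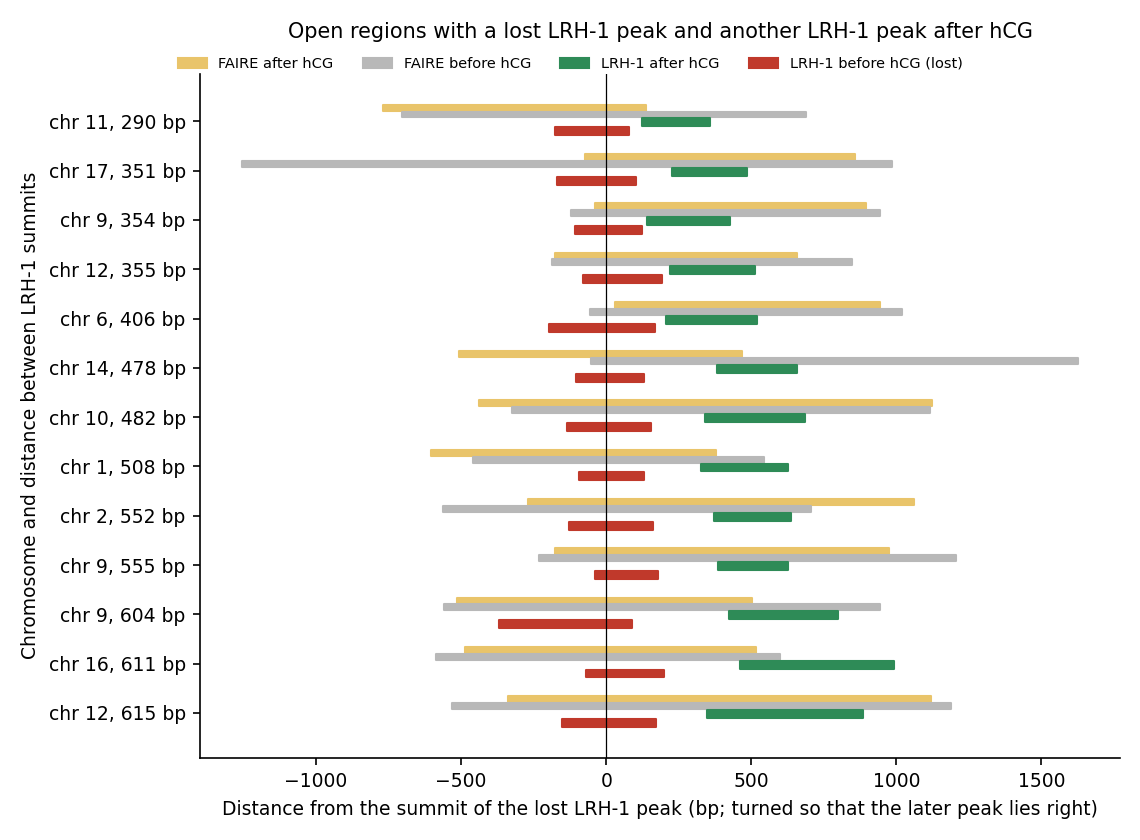
Maps of the 13 open regions that hold a lost LRH-1 peak (red) and another LRH-1 peak after hCG (green), with the FAIRE peaks after (yellow) and before hCG (grey), drawn to scale by distance in bp from the summit of the lost peak and turned so that the later peak lies on the right. The row labels give the chromosome and the distance between summits, from 290 to 615 bp.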

How the data were processed

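LRH-1 ChIP and FAIRE peaks of both times were used, 1 list per group. Per the submitters' processing notes, reads were aligned with BWA to mm9 and ChIP peaks came from MACS2 2.1.0 and bedtools. FAIRE calling and any pooling of replicates are not given in the sources used here. Deposited LRH-1 lists give a score, a fold enrichment ratio, −log10 p, −log10 q and a summit for each peak, and the deposited FAIRE lists give a score. These values rank peaks within 1 list and depend on unknown depth.

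Overlap meant at least 1 shared bp, and the 284 sites were the same by script and by bedtools 2.31.1. Where needed, the best-scoring FAIRE peak was taken. Analyses used Python 3.11.15, numpy 2.4.6, pandas 2.3.3 and scipy 1.17.1, with exact (Clopper-Pearson) 95% intervals, and interval code was tested on simulated data. Named were the 10 sites with the highest −log10 q, 5 by each FAIRE score, those at the edge of each overlap rule, and windows of 1 Mb with 3 sites. The 13 shared regions were named after their values were seen. Sites and groups were chosen with earlier results of these data known. Alternative overlap rules and thresholds were tried. RNA, motif and gene analyses were left out for lack of a matching genome annotation here.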

Additional observations from a re-analysis of the deposited data

How the results depend on the processing

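The number and share of lost sites, their median fold, FAIRE scores and distance, summit and neighbour shares, percentile differences and lost-share differences by FAIRE score were recomputed under 8 other overlap rules and thresholds, and window counts with other windows. Lost shares by LRH-1 strength and by chromosome, the 3 by 3 groups widths and all values of gained peaks were not recomputed. The percentile and lost-share differences, and their repeats within groups of like LRH-1 strength, were chosen after the data were seen. When peaks counted as kept only with summits within 100 bp, the number of lost sites was 481 (29.1% lost), the median FAIRE score after hCG 82.9, the median distance to a later LRH-1 peak 7778 bp, the share with another later LRH-1 peak in the same FAIRE peak 43.7%, and the difference in FAIRE percentile after hCG -9.84. By construction this rule calls lost many peaks that still overlap a later peak, and that overlapping peak was counted in the share and in the distance. With only the best-scoring LRH-1 peaks after hCG, as many as before, 469 sites (28.4%) were lost, 74344 bp from a later peak, and 1.92% shared a FAIRE peak with one. With the best-scoring 50% of each FAIRE list, which removes low scores by construction, 131 sites (13.9%) were lost, with FAIRE scores of 107 after and 166 before hCG, and percentile differences of -8.69 after and 1.57 before hCG; the lost share then differed by 10.1 points between extreme groups of FAIRE score after hCG, in place of 18.4. The share with a later LRH-1 peak in the FAIRE peak was 12.9% when 50% of the LRH-1 peak had to be covered. This count includes later peaks that overlap the site itself in part. It was 0% when later peaks were widened by 500 bp, a rule that removes all 13 such sites, which lay at most 331 bp from the later peak. The share of summits inside both FAIRE peaks was 100% by definition when FAIRE had to cover the summit. It was also 100% when FAIRE had to cover 50% of the peak.

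Within groups of like LRH-1 −log10 q, from the weakest, the percentile difference after hCG stayed negative, at -12.3, -26.6, -7.13, -31.5 and -19.2. Before hCG it was 2.29, -3.58, 6.61, 2.13 and -31.0, so it changed sign. The strongest group held 7 lost sites and the next strongest 30. With windows of 500 kb, 1 window held 3 lost sites. The median fold enrichment lay between 5.24 and 5.48 throughout. The planned motif search (also in a narrower window) and the RNA comparison (with DESeq2, without a filter, without each library and with a replicate block) were not run, as no mm9 genome or annotation was used. No paired analysis was possible because each group had 1 list. Read depths are not in the sources used here, so no peak value has an error beyond counting.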

Other observations

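Lost sites in constantly open chromatin were found on all 20 chromosomes that the lists cover. The share of constantly open LRH-1 peaks that was lost was highest on chromosome 19, with 16 of 51 (31.4%, exact binomial 95% interval 19.1 to 45.9), and on chromosome 18, with 17 of 59 (28.8%, 17.8 to 42.1). It was lowest on chromosome 7, with 8 of 91 (8.79%, 3.87 to 16.6). The intervals of chromosomes 19 and 7 do not overlap, but they are the extremes of 20 chromosomes, and this difference was not tested.

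The sites mostly lay far apart, but their spacing was not compared with that of any other class of peaks. The next lost site of the class lay a median of 2682520 bp away, 18 of 284 had another within 100 kb, and the closest pair had summits 317 bp apart. Windows of 1 Mb held at most 3 of them, in 3 windows. On chromosome 4 from 137000001 to 138000000 these were peaks of 5.42-fold at 137453265, 4.69-fold at 137548663 and 7.13-fold at 137990600. The same window held 13 gained LRH-1 peaks and 2 persistent ones of constantly open chromatin. On chromosome 13 from 95000001 to 96000000 the lost sites were 6.33-fold at 95235388, 4.40-fold at 95389516 and 5.75-fold at 95779743. Beside them lay 9 gained LRH-1 peaks and 1 persistent one of constantly open chromatin. On chromosome 19 from 32000001 to 33000000 the lost sites were 5.11-fold at 32678228, 5.77-fold at 32727996 and 4.42-fold at 32980342. That window held 7 gained LRH-1 peaks and no persistent one of constantly open chromatin. Each of the 3 windows held 5 lost LRH-1 peaks over all FAIRE classes and 20 to 34 FAIRE peaks after hCG. The windows were chosen for their lost sites, and a link to gained peaks was not tested.

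The narrowest width in the LRH-1 list before hCG was 219 bp. It was the width of 48 lost sites (16.9%) and of 66 persistent sites (4.82%) in constantly open chromatin. Narrow peaks were not particular to these lost sites, whose lower quartile of width was 229 bp. The lower quartile was 225 bp at peaks lost without any FAIRE peak and 236 bp at those lost at FAIRE peaks of the earlier time only. Over all LRH-1 peaks before hCG it was 243 bp.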
